A study of Mus musculus with 30 samples.

Results

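The clustered protocadherins are cell adhesion genes in 3 neighbouring arrays, named alpha, beta and gamma, on mouse chromosome 18. All rows of the expression table whose symbol was Pcdha, Pcdhb or Pcdhg followed by an isoform number or letter were taken if their mean was at least 10 normalized counts over the 30 libraries. This gave 57 genes of the 18240 in the table: 14 alpha, 21 beta and 22 gamma. No matching row fell under that mean, and the lowest means were 48.1 for Pcdha8 and 49.9 for Pcdhgb8, so the 57 are all matching rows and all entered the tests. Pcdhb1 was not analysed here.

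RNA was sequenced in bulk from prefrontal cortex taken on postnatal day 40 from mice of strain C57BL/6J. Heterozygous mice (HT) for Adnp were set beside wild types (WT). Adnp encodes a chromatin-binding homeodomain protein. Groups were WT given vehicle (4 female and 4 male libraries), HT given vehicle (4 and 3), HT given fluoxetine, a serotonin reuptake inhibitor (4 and 4), and HT given lithium, a mood stabilizer (3 and 4). No WT library was drug-treated, and the labels give 1 batch for all libraries. The sources used here give neither the mutant allele nor the dose or duration of the drugs. Libraries held 23771758 to 34307061 reads. The labels number the replicates without saying that each is a separate mouse, so each p-value measures only how far these libraries spread.

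In the alpha and gamma clusters, each gene has its own large variable exon, transcribed from its own promoter and spliced to small constant exons that the whole cluster shares. Beta genes have a single coding exon and no constant part. The variable exon encodes the extracellular and transmembrane part of the protein, which binds the same isoform on another membrane. Single neurons are known to express different small sets of these genes, apart from the last, C-type genes of the alpha and gamma clusters, which are more broadly expressed. Promoter choice is known to involve CTCF, cohesin and DNA methylation, and the proteins are known for dendrite self-avoidance and neuronal survival.

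On GRCm38 (GENCODE M21, 1-based, all on the plus strand), the alpha cluster spanned 36930184 to 37187661, the beta cluster 37294812 to 37524479 and the gamma cluster 37661793 to 37841873. GENCODE M21 gives the symbol Pcdha11 to 2 rows. The one starting at 37005203 (ENSMUSG00000007440) lies at Pcdha10 of RefSeq and is called Pcdha10 below, and the one starting at 37010712 (ENSMUSG00000102206) is called Pcdha11. The longest coding transcripts of the alpha genes shared 48.6 to 54.9% of their bases with other members, those of the gamma genes 13.4 to 45.5% and those of the beta genes 0 to 9.67%. The share of 31-base words found in no other annotated gene had a median of 36.4% in alpha, 87.9% in beta and 53.3% in gamma genes. It was lowest in Pcdha4, at 2.58%, where a read-through gene covers the same exons. Reads from constant exons cannot be assigned to 1 gene directly, so single alpha and gamma values carry an uncertainty that beta values carry less of.

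Most clustered protocadherin reads came from the gamma cluster. The C-type genes made up 56.7% ± 1.53 (SD, n = 8) of the gamma sum and 46.5% ± 1.55 of the alpha sum in WT vehicle libraries. The mean summed normalized count was 21331 for gamma, 6101 for alpha and 4458 for beta, with 66.9% of the total in gamma and 19.1% in alpha. Per kilobase of transcript, the highest mean levels over the 30 libraries were those of Pcdhgc5 (1569.5 normalized counts per kilobase), Pcdhgc3 (625.8), Pcdhac2 (435.6) and Pcdhgc4 (340.6). The fifth was Pcdhga11 at 271.8. Pcdhac1, the other alpha C-type gene, was at 57.2, within the range of the variable alpha genes. Pcdhgc5 alone made up 34.9% of the gamma sum, and Pcdhac2 42.0% of the alpha sum.

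The remaining members had lower levels, from 9.01 to 271.8 per kilobase, as the plot of levels by position shows. In the alpha cluster Pcdha12 was second, at 91.2 per kilobase, and Pcdha8 lowest at 9.01. In the beta cluster Pcdhb17 (108.2) and Pcdhb9 (105.2) were highest and Pcdhb4 (17.9) lowest, and the top gene made up 11.3% of the sum. The lowest gamma gene was Pcdhgb8 (17.9). Without the C-type genes, the Spearman correlation across genes between level per kilobase and position from the 5′ end was 0.29 in alpha (n = 12), 0.49 in beta (n = 21) and -0.035 in gamma (n = 19).

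**Figure D1:**
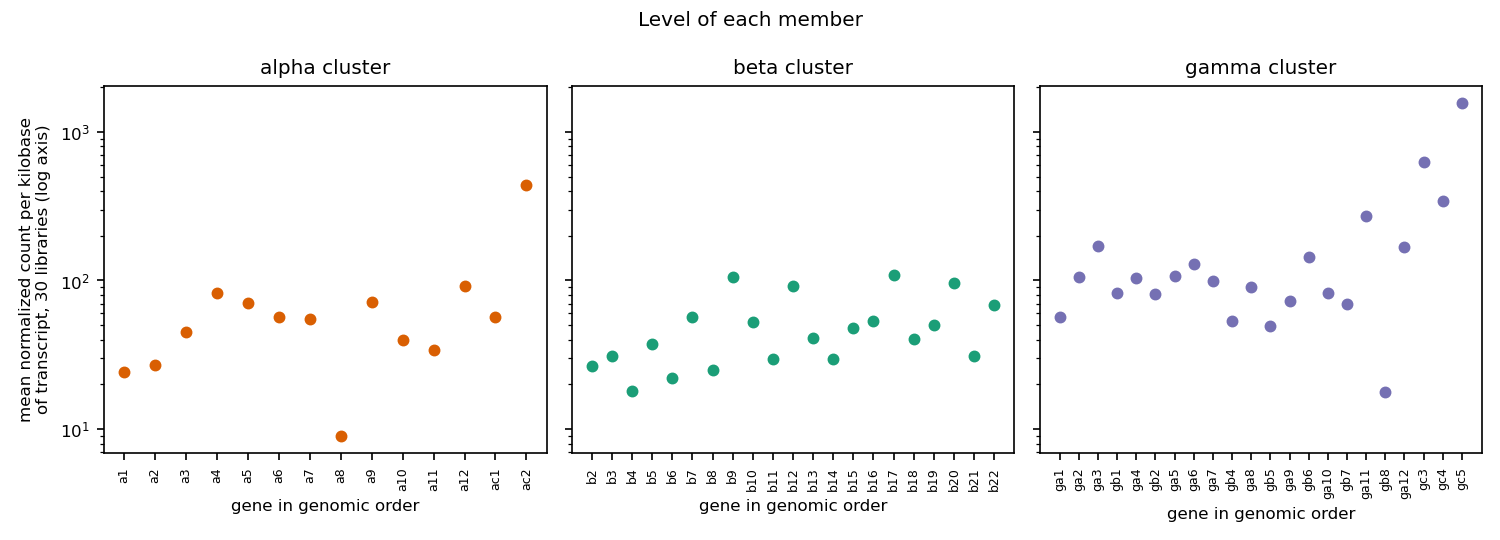
Mean normalized count per kilobase of transcript over 30 libraries (log axis) for each of the 57 genes, in genomic order within its cluster. The C-type genes at the end of the gamma cluster and Pcdhac2 lie above the other genes, and Pcdha8 lies lowest at 9.01.

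The targeted gene was checked first. The count listed under Adnp was 1898 ± 157 (SD, n = 8) in WT vehicle and 2251 ± 137 (n = 7) in HT vehicle libraries, against the direction of the genotype label. How reads were divided between Adnp and the overlapping Gm20716 was not tested. Gm20716 was 2417 ± 158 (SD, n = 8) in WT vehicle and 1412 ± 90.2 (n = 7) in HT vehicle libraries. The sum of both was 4226 to 4433 in the 8 WT libraries and 3404 to 3887 in the 22 HT libraries, without overlap, and each library's sum fitted its genotype label.

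The comparison of HT with WT vehicle libraries asks which members differ by genotype without a drug. HT libraries had another mix of isoforms at almost the same total: 5 members were higher and 6 lower at a limma adjusted p under 0.05, over 16824 genes tested. The 11 called members are 19.3% of 57, where 0.731% of all genes tested were called. By direction, 0.624% of all genes were called higher and 0.107% lower. Pcdhga11, Pcdhga2, Pcdhb15, Pcdhb16 and Pcdhb17 were higher. Pcdhga7, Pcdhga9, Pcdhga10, Pcdhga6, Pcdhgb4 and Pcdha11 were lower. The median log2 fold change was -0.02 over the 57 members and -0.001 over all genes. All fold changes compare log2(normalized count + 1), where changes of low genes come out too small.

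By cluster, 7 of 22 gamma genes were called (2 higher, 5 lower), 3 of 21 beta genes (all higher) and 1 of 14 alpha genes (lower). Positive fold changes were found in 14 of 21 beta genes, 7 of 22 gamma genes and 6 of 14 alpha genes. The median log2 fold change was 0.13 in beta, -0.11 in gamma and -0.03 in alpha.

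Pcdhga11, a variable gamma gene and the most abundant one outside the C types, showed the clearest rise. Normalized counts were 933.2, 1049.9, 978.1 and 1073.9 in WT vehicle females and 840.6, 838.6, 1035.4 and 1002.2 in WT vehicle males. In HT vehicle libraries it was 1536.5, 1472.3, 1483.7 and 1323.7 in females and 1477.1, 1254.9 and 1265.9 in males. Every HT vehicle library was above every WT library, as was so for 3 members and 0.404% of all genes. With limma, the difference was 0.52 on the log2 scale (SE 0.0576, adjusted p = 1.49e-06).

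Pcdhga7, which lies upstream of it in the array, showed the clearest fall. Its count was 592.5, 564.1, 644.4 and 643.0 in WT vehicle females and 569.7, 571.3, 591.2 and 573.0 in WT vehicle males. In HT vehicle libraries it was 407.2, 396.4, 396.4 and 452.7 in females and 440.3, 468.1 and 351.8 in males. Every HT vehicle library was below every WT library, as was so for 2 members and 0.0476% of all genes. The limma difference was -0.51 on the log2 scale (SE 0.06, adjusted p = 4.01e-06).

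Among the other gamma genes, Pcdhga2 had a lowest, median and highest count of 285.2, 358.2 and 443.1 in WT and 426.9, 564.3 and 635.3 in HT vehicle libraries. The groups overlapped only in the range from 426.9 to 443.1, with a difference of 0.61 (log2, SE 0.0924, limma adjusted p = 0.000307). Pcdhga9 went the other way, with 365.1, 442.7 and 515.1 in WT and 273.8, 327.0 and 365.6 in HT vehicle libraries, which overlap by a narrow margin (log2 fold change -0.43, SE 0.0853, limma adjusted p = 0.00791). For Pcdhga10 the values were 432.0, 462.1 and 547.9 against 326.4, 367.1 and 421.5, without overlap (log2 fold change -0.33, limma adjusted p = 0.0208). Pcdhga6 and Pcdhgb4 had log2 fold changes of -0.27 and -0.38 (limma adjusted p of 0.0226 and 0.0366), with overlapping groups.

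The beta genes called were direct neighbours. Pcdhb15 was at 90.6, 106.3 and 123.7 (lowest, median, highest) in WT and 129.5, 144.4 and 157.2 in HT vehicle libraries, without overlap. The difference was 0.43 (log2, SE 0.0851, limma adjusted p = 0.00642). Pcdhb17, the beta gene of highest level, was at 370.0, 445.7 and 483.3 against 498.6, 510.6 and 574.2, again without overlap, with a log2 change of 0.25 (limma adjusted p = 0.00794). Between them, Pcdhb16 was at 176.5, 211.2 and 294.6 against 273.4, 296.3 and 346.8, and the groups overlapped (log2 fold change 0.47, limma adjusted p = 0.0466).

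Pcdha11 was the only alpha gene called. Its lowest, median and highest counts were 164.1, 269.4 and 300.7 in WT and 143.3, 160.2 and 206.0 in HT vehicle libraries, and the groups overlapped. It differed by -0.55 (log2, SE 0.123, limma adjusted p = 0.0251). Its neighbour Pcdha12 was at -0.36 on the same scale (limma adjusted p = 0.12). Pcdha8 had the largest fold change of all members, 0.93, with an SE of 0.375, and was not called (limma adjusted p = 0.542).

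Calls differed in how far they rested on single libraries. Leaving out each of the 15 libraries in turn, Pcdhb15, Pcdhb17, Pcdhga2, Pcdhga7, Pcdhga9 and Pcdhga11 were called each time. The call was lost in 5 of 15 cases for Pcdhga10, 7 for Pcdhga6, 9 for Pcdha11, 11 for Pcdhgb4 and 12 for Pcdhb16. The count of called members fell from 11 to 7 without HT vehicle male 2, HT vehicle male 3, WT vehicle female 1 or WT vehicle female 4. With the vehicle groups alone in the fit, 8 members were called, and Pcdhb17, Pcdha11 and Pcdhga6 lost their calls (limma adjusted p of 0.0743, 0.101 and 0.0557). The share of all genes called in these re-fits was not counted.

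**Figure D2:**
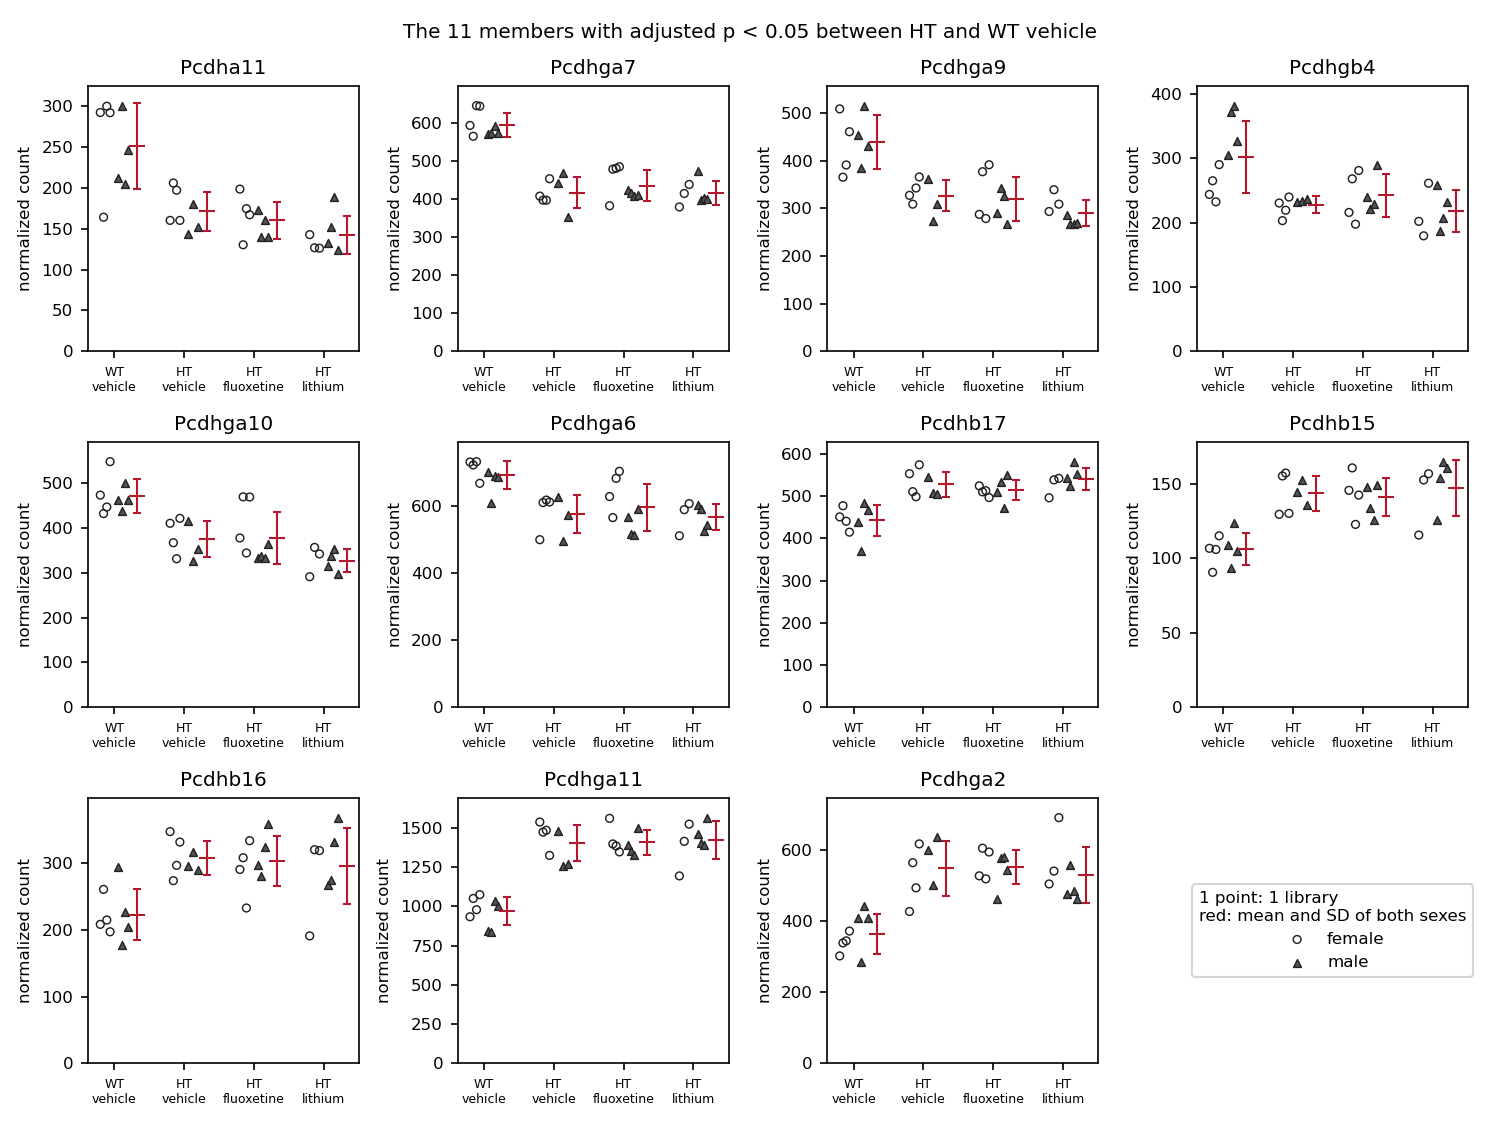
Normalized counts of the 11 members called between HT and WT vehicle, per library (open circles female, triangles male), with mean and SD in red. HT libraries of Pcdhga7 lie below and those of Pcdhga11 above all 8 WT libraries under each treatment.

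The C-type genes did not pass the test in the main fit. With striatal and olfactory bulb marker sums as covariates, a fit added after the data had been seen, Pcdhac1 was called. In that fit its log2 fold change against WT was 0.30 in HT vehicle and 0.26 in HT fluoxetine (limma adjusted p of 0.00299 and 0.00445). The values that follow are those of the main fit. The log2 fold change between HT and WT vehicle was 0.22 for Pcdhac1, -0.06 for Pcdhac2, 0.01 for Pcdhgc3, -0.02 for Pcdhgc4 and -0.04 for Pcdhgc5, with limma adjusted p of 0.597, 0.968, 0.993, 0.993 and 0.972. Pcdhgc5 was 7727 ± 424 (SD, n = 8) in WT and 7522 ± 595 (n = 7) in HT vehicle libraries. Pcdhgc4, known as the isoform needed for neuronal survival, was 1652 ± 351 against 1637 ± 407.

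In genomic order, fold changes of neighbours often shared a sign. From Pcdhga4 through Pcdhga9, 9 neighbouring gamma genes, all log2 fold changes were negative, from -0.12 for Pcdhgb2 to -0.51 for Pcdhga7, and 4 of the 9 were called. Downstream of that run the signs were mixed. The log2 fold changes were, in order, Pcdhgb6 0.44, Pcdhga10 -0.33, Pcdhgb7 0.47, Pcdhga11 0.52, Pcdhgb8 0.34 and Pcdhga12 -0.14. Of these, only Pcdhga10 and Pcdhga11 were called. In the beta cluster, Pcdhb13 to Pcdhb17 all had positive values. Along a whole cluster, the Spearman correlation across genes of fold change with position was -0.19 in alpha, 0.12 in beta and 0.14 in gamma. These runs were picked out after the values were seen, and neighbours in alpha and gamma share constant exons.

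**Figure D3:**
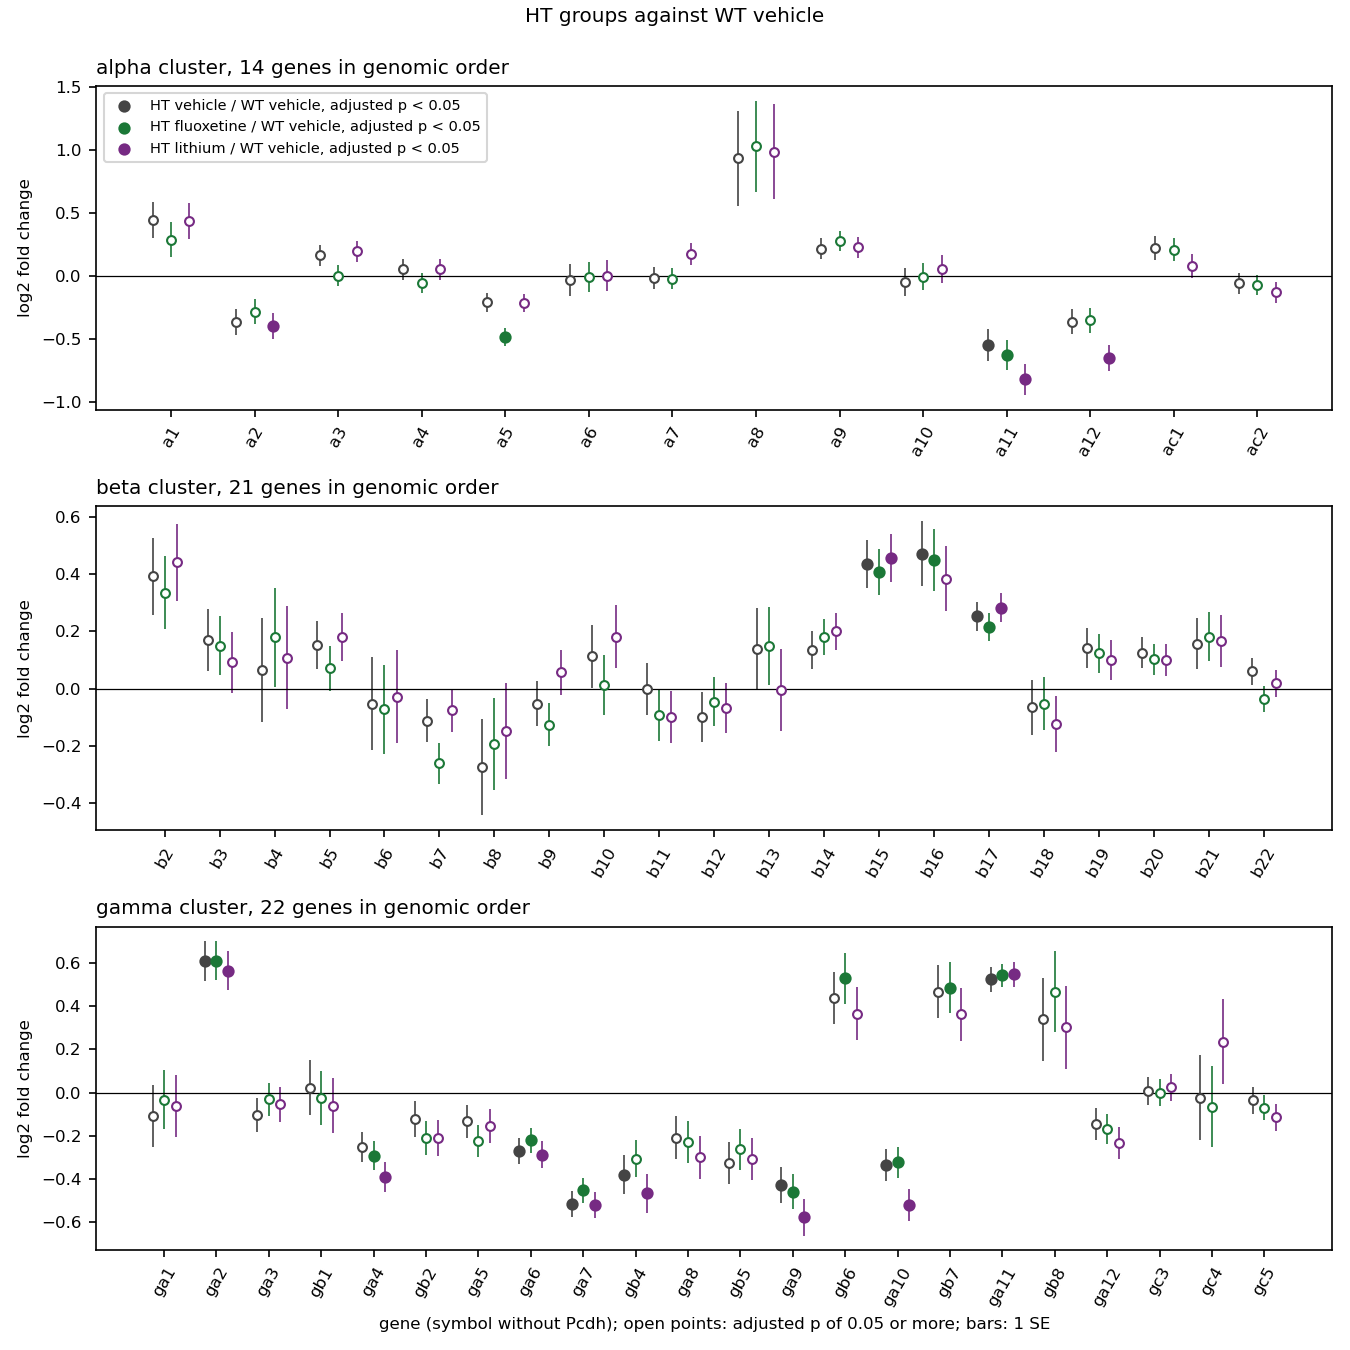
Log2 fold change (with 1 SE) of each HT group against WT vehicle for the 57 genes in genomic order; filled points have a limma adjusted p under 0.05. Pcdhga7 and Pcdhga11 are filled in all 3 groups with opposite signs, and Pcdha8 has the widest bars.

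In the beta cluster, fold change went with sequence uniqueness. Across the 21 beta genes, the Spearman correlation of the HT vehicle fold change with the share of unique 31-base words was 0.75, against -0.11 over the alpha and 0.09 over the gamma genes. Pcdhb15, Pcdhb16 and Pcdhb17 all lay above the beta median of 87.9% unique words. With HT fluoxetine or lithium libraries in place of HT vehicle, against the same WT libraries, the beta value was 0.78 or 0.58. The part that read assignment among similar beta genes has in this was not tested.

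**Figure D4:**
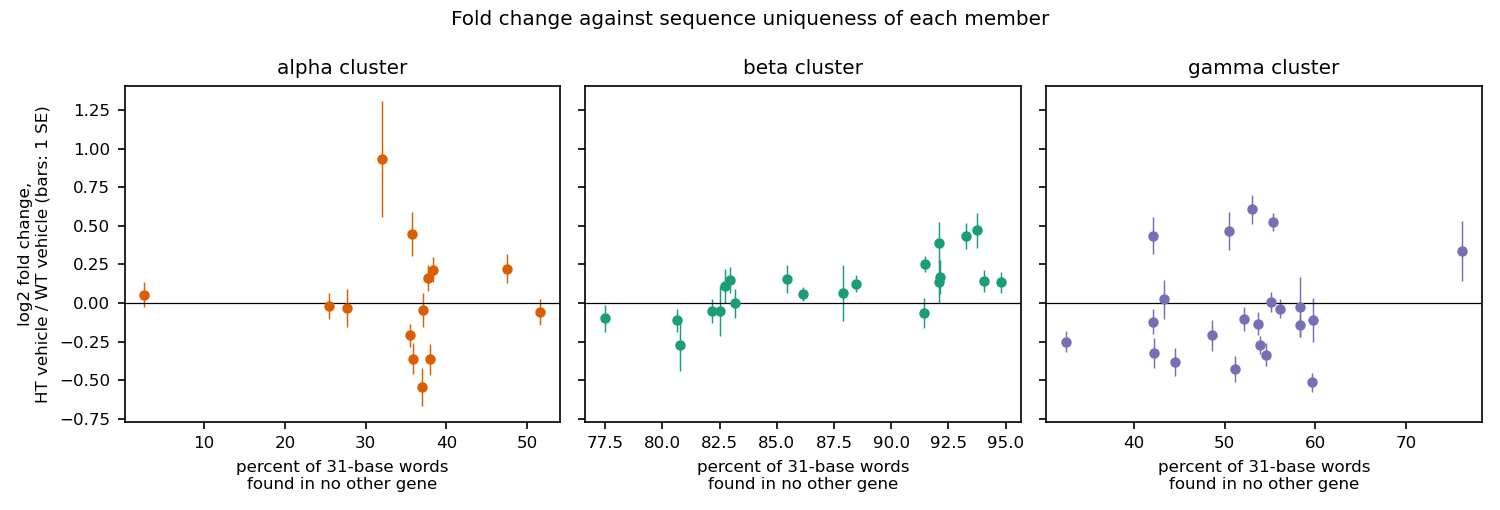
Log2 fold change between HT and WT vehicle (with 1 SE) against the percent of 31-base words of each gene found in no other annotated gene, by cluster. Beta genes with more unique words have higher values (Spearman 0.75), and the alpha and gamma panels show no such order.

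HT mice given fluoxetine or lithium were compared with the same 8 WT vehicle libraries, so the next values share their controls with those above and are not independent of them. Against WT vehicle, 14 of 57 members were called in HT fluoxetine libraries (7 higher, 7 lower), where 1.49% of all genes were called (1.24% higher and 0.25% lower). In HT lithium libraries 13 were called (4 higher, 9 lower), where 1.97% of all genes were called (1.4% higher and 0.577% lower). The median log2 fold change over the members was -0.03 and 0.02, against -0.001 over all genes in each.

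Pcdhga11 was at 1326.0, 1388.0 and 1559.7 (lowest, median, highest) under fluoxetine and at 1193.2, 1413.5 and 1564.2 under lithium. All 22 HT libraries were thus above all 8 WT libraries, as for 0.172% of all genes. The log2 fold changes against WT were 0.54 and 0.55 (limma adjusted p of 2.89e-07 and 6.09e-07). Pcdhga7 was at 381.8, 418.7 and 484.2 under fluoxetine and 378.6, 402.6 and 472.8 under lithium. All 22 HT libraries were below all 8 WT libraries, as for 0.0119% of all genes, and the log2 fold changes were -0.45 and -0.52 (limma adjusted p of 1.3e-05 and 2.34e-06).

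Several other members had values of like size beside the vehicle ones. Pcdhga2 had log2 fold changes of 0.61 under fluoxetine and 0.56 under lithium (limma adjusted p of 0.000111 and 0.00068). Pcdhga9 had -0.46 and -0.58 (limma adjusted p of 0.00174 and 0.000155), and Pcdhga10 -0.32 and -0.52 (0.0152 and 7.48e-05, limma adjusted). Pcdhb15 had 0.41 and 0.46 (limma adjusted p of 0.00609 and 0.00266) and Pcdhb17 0.22 and 0.28 (0.0177 and 0.00159). Not all vehicle calls recurred: Pcdhb16 was not called with lithium, and Pcdhgb4 was not called with fluoxetine. The fluoxetine call of Pcdhga6 was lost with library-total scaling (limma adjusted p = 0.0858) and with edgeR (edgeR adjusted p = 0.053).

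Some members passed in 1 treated group and not in the vehicle comparison, and none of the corresponding differences between HT groups was called. Pcdha5 was at 371.1, 423.5 and 463.2 in WT, 340.9, 352.8 and 396.3 in HT vehicle, 261.1, 308.9 and 343.7 in HT fluoxetine and 286.7, 359.9 and 441.2 in HT lithium libraries. It was lower than WT in fluoxetine libraries, by a log2 change of -0.48 (limma adjusted p = 0.000121), with values of -0.21 in both other HT groups. Fluoxetine against HT vehicle gave -0.27 for it (SE 0.0736, limma adjusted p = 0.756). Pcdha12 was lower than WT in lithium libraries, at 336.2, 369.4 and 447.1 against 472.0, 637.8 and 662.2, without overlap (log2 fold change -0.65, limma adjusted p = 0.00031). Lithium against HT vehicle gave -0.29 for it (SE 0.104, limma adjusted p = 0.808).

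For Pcdha11 the log2 difference from WT was -0.63 under fluoxetine and -0.82 under lithium (limma adjusted p of 0.00303 and 0.000192). Pcdhga4 had -0.29 and -0.39 (0.0185 and 0.00133, limma adjusted). Pcdhgb6 (0.53) and Pcdhgb7 (0.48) were called with fluoxetine (limma adjusted p of 0.0177 and 0.0317) but not with lithium (0.127 and 0.131). Among fluoxetine libraries, both genes were highest in females 2 and 4 (Pcdhgb6 938.8 and 958.0, Pcdhgb7 427.7 and 483.3). Those females had the highest striatal marker sums of all libraries (29413 and 36949). The part of the striatal markers in this contrast between fluoxetine and lithium results was not tested. Pcdha2 was called with lithium (-0.39, limma adjusted p = 0.0373) but not with fluoxetine (0.19), and leaving out 1 library ended that call in 10 of 15 cases. Pcdhgb7 under fluoxetine lost its call in 8 of 16 cases. With only the groups compared in the fit, Pcdhgb6, Pcdhgb7 and Pcdhb17 lost their fluoxetine calls (limma adjusted p of 0.073, 0.106 and 0.066), and Pcdha2 its lithium call (0.104).

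Several marker lists were shifted in the lithium comparison, although limma called 0 genes in each of the 4 lists that follow. In HT lithium against WT libraries, 7 of 7 olfactory bulb and neuroblast markers had positive log2 fold changes (median 1.73), as did 7 of 7 meningeal fibroblast markers (median 0.45). All 8 striatal markers (median -0.50) and all 9 excitatory neuron markers (median -0.19) had negative ones, against a median of -0.001 over all genes. Of the other lists, 0 of 5 oligodendrocyte precursor markers were positive (median -0.17), with 1 called lower. Mature oligodendrocyte markers were positive in 0 of 5 (median -0.12, 0 called), and endothelial ones in 3 of 4 (median 0.10, 1 called higher). With the striatal and olfactory bulb sums as covariates, a fit added after the data had been seen, 15 members were called, and Pcdha12 had a log2 change of -0.61 and Pcdha11 one of -0.77 (limma adjusted p of 0.00249 and 6.59e-05). With male 4 of the HT lithium group and female 1 of the HT vehicle group both left out, the values were -0.62 and -0.78 (limma adjusted p of 0.00143 and 0.000724), and 12 members were called in place of 13. The lithium call of Pcdha2 was lost with the covariates (limma adjusted p = 0.0517) and without these libraries (0.0908). The part of the meningeal, excitatory, oligodendrocyte and endothelial markers in the lithium calls was not tested. The share of all genes called under these settings was not counted. With fluoxetine, 7 of 7 olfactory bulb markers had positive values (median 0.76), with 0 called by limma. Meningeal fibroblast markers were positive in 6 of 7 (median 0.21), striatal ones in 6 of 8 (0.05) and excitatory ones in 1 of 9 (-0.11). Limma called 0 of these, and the striatal sums of fluoxetine libraries ran from 4671 to 36949. Oligodendrocyte precursor and mature oligodendrocyte markers had 0 of 5 positive each (medians -0.13 and -0.12, 0 called). Of 5 microglia markers, 1 was called higher by limma. With the striatal and olfactory bulb sums as covariates, 19 members were called between HT fluoxetine and WT in place of 14. The share of all genes called in that fit was not counted either.

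Drug effects within the HT genotype were tested directly. Fluoxetine against HT vehicle called 0 of 57 members by limma, edgeR and DESeq2, where limma called 0.0357% of all genes, and 2 members had an unadjusted p under 0.05. Lithium against HT vehicle called 0 members by each of these tools, where limma called 0.0892% of all genes, and 4 members had an unadjusted p under 0.05. Fluoxetine against lithium called 0 members by each tool. Of all genes, limma and edgeR called 0 and DESeq2 13 in that comparison, and 7 members had an unadjusted p under 0.05. Log2 fold changes of the members ran from -0.27 to 0.13 for fluoxetine and from -0.29 to 0.26 for lithium, both against HT vehicle. For Pcdhga7 the 95% interval of the difference from HT vehicle was -0.06 to 0.19 with fluoxetine and -0.13 to 0.12 with lithium, and for Pcdhga11 it was -0.10 to 0.13 and -0.10 to 0.15 (log2). The distance between either drug group and HT vehicle was therefore bounded below the size of the genotype difference for both genes.

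Summed counts per cluster moved little. The gamma sum was 21687 ± 888 (SD, n = 8) in WT vehicle, 21308 ± 649 (n = 7) in HT vehicle, 21182 ± 571 (n = 8) in HT fluoxetine and 21117 ± 644 (n = 7) in HT lithium libraries. The alpha sum was 6347 ± 342, 6139 ± 466, 5989 ± 456 and 5908 ± 542 in the same order. The beta sum was 4245 ± 310, 4570 ± 230, 4474 ± 260 and 4572 ± 368, or 107.6, 105.4 and 107.7% of WT in the 3 HT groups. All groups overlapped in each cluster, and a sum over chosen genes was given no test. In bulk tissue, fewer cells expressing a gene and less RNA per cell cannot be told apart.

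**Figure D5:**
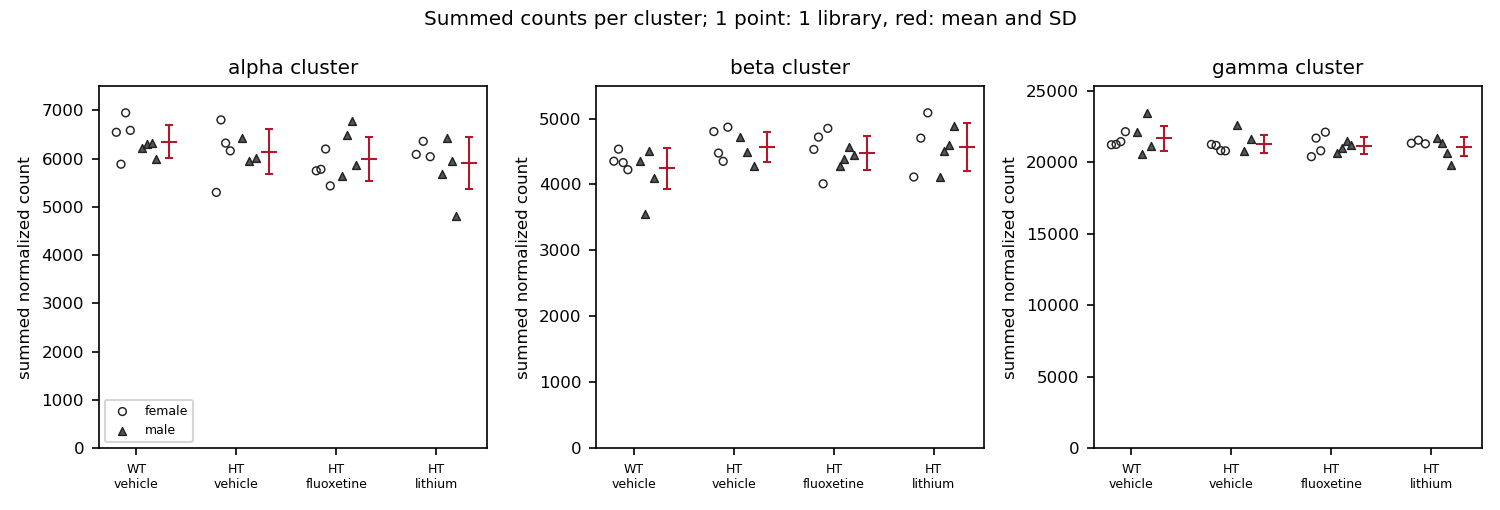
Summed normalized count of each cluster per library (open circles female, triangles male), with mean and SD in red. The 4 groups overlap in every cluster, and the beta means of the HT groups lie at 105.4 to 107.7% of the WT mean.

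By sex, HT against WT vehicle called 3 members in females (Pcdhga2, Pcdhga7 and Pcdhga11), where 0.256% of all genes were called (0.238% higher and 0.0178% lower), and 2 in males (Pcdhga7 and Pcdhga11), where 0.226% were (0.214% higher and 0.0119% lower). The log2 fold change of Pcdhga7 was -0.56 in females and -0.47 in males, and that of Pcdhga11 was 0.53 and 0.52. The labels number the replicates without stating a pairing. With the number as a block, Pcdhga2 was called in males too (0.62, limma adjusted p = 0.0416, against 0.59 and 0.0671 without). That call rests on an assumed pairing. The Pcdhga7 call in males was lost without HT vehicle male 3 (limma adjusted p = 0.229). No member differed between the sexes in its genotype effect by limma, edgeR or DESeq2 (0 of 57, 3 at an unadjusted p under 0.05; limma called 0 of all genes).

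Between males and females over all groups, limma called 0 of 57 members, with 12 at an unadjusted p under 0.05, where 0.214% of all genes were called (0.149% higher and 0.0654% lower in males). Pcdha8 had 65.3 ± 27.4 normalized counts in females (SD, n = 15) and 30.9 ± 14.3 in males (n = 15), with overlap. Its log2 fold change was -1.07 (limma adjusted p = 0.105), and edgeR (0.0467) and DESeq2 (0.00342) called it. DESeq2 also called Pcdha10, at 236.5 ± 34.8 in females and 189.8 ± 32.7 in males (DESeq2 adjusted p = 0.0165, limma adjusted p = 0.0657).

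Members also varied together across libraries of a group. Over deviations from the 8 group means in 30 libraries, the median Pearson r between pairs was 0.37 within beta (94.8% of pairs positive), 0.22 within gamma and 0.14 within alpha. It was 0.21 between beta and gamma, -0.05 between alpha and beta and -0.02 between alpha and gamma. The pair with the highest r was the last gene of each constant-exon cluster, Pcdhac2 and Pcdhgc5 (0.90, Spearman 0.82, and 0.84 without the 2 farthest libraries). Next came Pcdhb6 with Pcdhgb6 (0.83) and Pcdhgb6 with Pcdhgb7 (0.82). Pcdhgc4 went against Pcdhgc5 (-0.59, Spearman -0.66). These values share libraries and scaling, and are a description without a p. The median SD of these deviations (log2) was 0.19 in alpha, 0.17 in beta and 0.17 in gamma genes, against 0.13 over all genes. Pcdhgb6 was 938.8 and 958.0 in HT fluoxetine females 2 and 4, whose striatal marker sums were 29413 and 36949. In HT fluoxetine females 1 and 3 it was 687.2 and 632.6, at sums of 4699 and 4797. HT lithium male 4 had the highest Pcdhgb6 of its group (824.3) at a striatal sum of 4596. The part of the striatal and olfactory bulb markers in the correlations above was not tested.

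Excitatory neuron markers were high in every library, with a summed count of 57645 to 74030 in WT and 51550 to 67738 in HT vehicle libraries (9 of 9 markers tested, 0 called). Markers of striatal neurons (8 of 8 tested, 0 called) summed to 4621 to 21312 in WT and 4748 to 22880 in HT vehicle libraries. Markers of olfactory bulb and neuroblasts (7 of 7 tested, 0 called) summed to 1615 to 9109 and 1805 to 16698. No marker of these lists was at 0 in any library. Between HT and WT vehicle, 8 of 8 striatal markers had positive log2 fold changes (median 0.30), and 5 of 7 olfactory bulb markers (0.23). The median striatal sum was 7811 in WT and 5602 in HT vehicle libraries. Excitatory neuron markers were positive in 2 of 9 (median -0.09). In the marker lists of other cell types, Pdgfra of oligodendrocyte precursors was the only gene called in this comparison (-0.18, limma adjusted p = 0.0303). Mature oligodendrocyte markers were positive in 5 of 5 (median 0.08) and precursor ones in 1 of 5 (median -0.12). The part of the excitatory and oligodendrocyte markers in the vehicle calls was not tested. The highest olfactory bulb sums were those of HT lithium male 4 (18238) and HT vehicle female 1 (16698), where Pcdhgc5 (5456 and 6382) and Pcdhac2 (1900 and 1882) were lowest. Without both libraries, 8 members were called between HT and WT vehicle. The calls of Pcdha11, Pcdhb16, Pcdhga6 and Pcdhgb4 were lost (limma adjusted p of 0.0521, 0.0848, 0.0581 and 0.0521), and Pcdhgb5 was gained. With the striatal and olfactory bulb sums as covariates, 16 members were called, 8 in each direction, among them Pcdhac1. The share of all genes called was not counted for either of these settings, so the 2 counts have no background beside them.

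Few genes that control or bind the clustered protocadherins passed the test. The 33 regulators tested included CTCF, cohesin, DNA methyltransferases and heterochromatin proteins. Of these, 1 was called between HT and WT vehicle, where 0.731% of all genes were called. It was Adnp itself (log2 fold change 0.26, limma adjusted p = 0.00996), which is uncertain because the division of reads with Gm20716 was not tested. The list's median log2 fold change was 0.02. Ctcf, whose protein loops protocadherin promoters to enhancers, was 1848 ± 107 (SD, n = 8) in WT and 1835 ± 86.7 (n = 7) in HT vehicle libraries. Rad21, a cohesin subunit, was 2673 ± 107 and 2696 ± 171. Setdb1, a histone methyltransferase known to act on this locus, was 1413 ± 64.5 and 1432 ± 65.3, and Smchd1, a structural chromatin repressor of the clusters, 1154 ± 59.7 and 1195 ± 68.3. Of 25 partners, such as the kinases Ptk2 and Ptk2b and the WAVE complex, 0 were called by limma (median -0.04). Of 10 non-clustered delta protocadherins, 0 were called by limma (median -0.01).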

How the data were processed

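The authors deposited 1 gene-level signal table of 18240 genes in 30 columns, whose values are reads per gene after division by a library's size factor. Salmon 0.11.2, R 3.6.0, DESeq2 1.19.11 and GRCm38 are named per the submitters' processing notes, and the libraries were stranded poly(A) preparations per the labels' protocols. The sources used here do not give the annotation, the filters or the use of strand. Whole reads were recovered: 100% of values were whole within 0.01. In 2 columns the step lay within 0.5% of 1.

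Symbols and gene models came from GENCODE M21 (18227 identifiers matched, 13 not). Limma 3.58.1 in R 4.3.3 (trend, robust) was run on log2(normalized count + 1) for 16824 genes with a mean of at least 10. All 30 libraries entered 1 fit with 8 group means (22 residual degrees of freedom), sexes averaged, Benjamini-Hochberg adjusted over all genes, called under 0.05. On recovered reads, edgeR 4.0.16 called 124 genes and DESeq2 1.42.0 144 between HT and WT vehicle, where limma called 123. On simulated counts for that comparison (16824 genes), 73% of changes of 0.5 (log2) and 100% of changes of 1 were recovered. The simulated spread was assumed rather than estimated, without variation shared between genes, and low genes were not among those changed. These shares are therefore not the power in the real libraries. A chi-square comparison of the 42 pairs of replicates gave 4.78 to 32.0 per degree of freedom, and each library was counted once. Same-numbered libraries of 2 groups of a sex had correlated deviations of -0.43 to 0.45, and every pair was over 0.1 only for WT with HT vehicle males (0.17 to 0.28).

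Members, lists and tests were chosen with earlier results of these data known. Named are all members called in the vehicle comparison, up to 6 per direction in others, the C-type genes, and the members of highest and lowest level per kilobase in each cluster; others were named after their values were seen. Alternatives were the pseudocount (0.5 or 10), the filter, TMM or library-total scaling, both count models, the groups in the fit, a replicate block and leaving out libraries. The marker covariates were chosen after seeing the data. No sequence is printed.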

Additional observations from a re-analysis of the deposited data

Results flagged for a closer look

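Of 116 groups of 7 or 8 libraries checked for a single library far from the rest, 6 stood out by Dixon's criterion, where chance gives about 1 in 20. Pcdhga2 was 691.0 in HT lithium female 3, with the nearest library at 557.7. Pcdhac1 was 252.4 in HT vehicle female 1 (nearest 316.7), and Pcdhac2 was 1882 in the same library (nearest 2527). That library also had the highest olfactory bulb marker sum of its group, and the part of this in both values was not tested. Pcdhgc4 was 3764 in HT lithium female 1 (nearest 2283). Pcdhgb8 was 16.3 in WT vehicle male 2 (nearest 39.6), and the beta cluster sum of the same library was 3559 (nearest 4104).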

How the results depend on the processing

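Other settings gave 1910 values for 74 results of called members, C-type genes and Pcdha8 by sex. Of these values, 1789 kept their side of the threshold. No called change reversed its sign. Changes of sign in genes that were not called were not counted. All 324 sums moved by less than 1 SD. Of 305 counts of called members, 289 stayed within 1.5 times. HT against WT vehicle called 7 to 11 members with 1 library left out (11 with all). In females it called 3, or 2 to 3 with 1 left out, and 7 with the marker covariates, which were chosen after seeing the data. In males it called 2, or 1 to 3 with 1 left out, 4 with DESeq2 and 9 with the covariates. Male against female called 0, or 0 to 1 with 1 left out, and 1 with a pseudocount of 10, 1 with edgeR, 2 with DESeq2 and 1 with the covariates. The cause of these changes was not tested. HT fluoxetine against WT called 11 to 15 and HT lithium against WT 12 to 15 with 1 left out. Scaling to library totals moved the median of all genes by less than 0.1. How many of all genes were called was counted for the main limma, edgeR and DESeq2 fits only. The counts under other settings therefore have no such share beside them.

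The block takes its numbers from the sample titles, which for some HT lithium females differ from those in the library names. With the replicate number as a block, HT against WT vehicle called 9 members in place of 11, HT fluoxetine against WT 12 in place of 14, and HT lithium against WT 13 as before. The calls of Pcdhb16 (limma adjusted p = 0.0648) and Pcdhgb4 (0.0566) were lost in the vehicle comparison, and those of Pcdhb16 (0.0504) and Pcdhga6 (0.0656) under fluoxetine. Pcdhga2 in males was gained. Low members such as Pcdha8 rest on few reads per library, which limits their precision.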

Other observations

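Of 44 tested genes within 1 Mb of the clusters that are no members, 2 were called between HT and WT vehicle, both higher. Of all genes, 0.731% were called in this comparison, 0.624% higher. E230025N22Rik (GRCm38, chromosome 18, 36684923 to 36695925, minus strand), upstream of the alpha cluster, was nearly absent from WT libraries, with 0 to 2.16 normalized counts. Its highest count was 27.0 in HT vehicle libraries. It spanned 11.9 to 39.9 in HT fluoxetine and 11.7 to 19.1 in HT lithium libraries. All 22 HT libraries were above all 8 WT libraries, as was so for 0.172% of all genes. The log2 fold change between HT and WT vehicle was 3.56 (limma adjusted p = 3.41e-09). Its size depends on the pseudocount because the WT libraries held 0 to 2 reads each. The mean count was 13.4 over all libraries, 0.759 in WT and 18.3 in HT vehicle libraries. The gene thus passed the filter on the mean only through the HT libraries, in which it was then called higher. Its p-value is to be read with that selection in mind.

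The long noncoding RNA 3222401L13Rik (37655451 to 37661742, plus strand) ends just before the start of Pcdhga1 at 37661793. It was 27.0 ± 4.29 (SD, n = 8) in WT and 48.1 ± 7.73 (n = 7) in HT vehicle libraries. Every HT vehicle library was above every WT library, as was so for 0.404% of all genes. The log2 fold change was 0.81 (limma adjusted p = 0.00641), with 0.69 in HT fluoxetine and 0.91 in HT lithium against the same WT libraries (limma adjusted p of 0.015 and 0.0011). Pcdhga1 itself had a log2 fold change of -0.11 and was not called.

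Gm10545, an antisense RNA over the stretch from Pcdha10 to Pcdha12 (37008868 to 37020679, minus strand), was 18.4 ± 4.19 (SD, n = 8) in WT and 15.1 ± 4.21 (n = 7) in HT vehicle libraries. It was lower than WT in HT lithium libraries, at 8.11 ± 4.11 (n = 7; log2 fold change -1.22, limma adjusted p = 0.00663). Lithium against HT vehicle gave -0.95 (limma adjusted p = 0.471). Pcdha11 and Pcdha12 were lower than WT in the same lithium libraries. Because the counting's use of strand is not stated, reads of Gm10545 and of these genes cannot be told apart with certainty.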
